A study of Homo sapiens with 12 samples.

Results

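The 42 genes described here encode proteins that repair DNA or halt the cell cycle when DNA is damaged. They were chosen by symbol, from a list of Fanconi anaemia, recombination, excision, mismatch and checkpoint genes, and all 42 were found among the 26125 genes or transcripts of the deposited table. Of these, 38 reached a mean of at least 1 FPKM (fragments scaled by transcript length and by the number mapped in the library) over the 12 libraries and were tested.

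Cells answer each kind of DNA lesion with its own machinery. The Fanconi core complex ubiquitinates the FANCD2 and FANCI pair at crosslinks between strands, and BRCA1, BRCA2, PALB2 and their partners then guide homologous recombination. Nucleotide excision cuts out bulky adducts, base excision removes oxidised or altered bases, mismatch repair corrects copying errors, and the kinases ATM and ATR pass the alarm to CHEK2 and CHEK1. Ochratoxin A (OTA), a mould toxin of stored food, is a suspected genotoxin, so the question is whether these genes were expressed differently in cells exposed to it.

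The libraries were made from Caco-2, a human colon adenocarcinoma line whose cells form an enterocyte-like sheet, grown for 21 days on transwell inserts. There were 4 groups of 3 libraries. The combined group received OTA at 15 µmol/L and the bacterium Bacillus subtilis CW14 in the apical chamber, the OTA group the toxin alone at the same dose, the CW14 group the bacterium alone, and the control group neither. All groups shared the transport buffer, HBSS with HEPES. The labels give no time of exposure, and nothing in them says that replicates were separate cultures, so the tests reflect variation among these libraries only, and that variation may be technical. Values are FPKM, ± is the SD of 3 libraries (n = 3), and differences are on the log2(FPKM + 1) scale, which understates the change of genes with low values.

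Combined replicate 3 stood apart from the other libraries. Its residual SD over all genes tested was 0.589, against 0.305 to 0.425 in the other 11, and its mean correlation with its own group was 0.885. The depth of a library, read from the steps between low FPKM values, was 0.470 of that of control replicate 1 in this library, against 0.642 to 1.60 in the others. It held the highest of the 12 values in 18 of the 42 genes and the lowest in 8. Counts of repair genes called in comparisons of 2 groups, and most calls in the combined group, are therefore also given without it.

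The cells carried markers of intestinal epithelium. EPCAM averaged 439 FPKM in the combined group, 682 with OTA, 504 with CW14 and 531 in controls, and CDH17 211, 377, 285 and 299 in the same groups. SI, the brush border sucrase-isomaltase, averaged under 1 FPKM in each group (0.0904 in the combined group, 0.0690 in controls), and 9 of the 10 enterocyte markers reached the filter. The summed level of the 10 was 1090 to 1200 FPKM in the combined group, 1618 to 1780 with OTA, 1200 to 1496 with CW14 and 1270 to 1501 in controls. Of the 9 tested, 1 was higher and 3 lower in the combined group than with OTA, with a median log2 difference of -0.58. Among all genes 7.79% were higher and 8.22% lower. Without combined replicate 3, 1 marker was higher and 4 lower. The part of these markers in the results on repair genes was not tested. Of 11 markers of immune, stromal and endothelial cells, PTPRC, COL1A2 and DCN were listed at 0 in all 12 libraries. The marker with the highest level, CD68, had 61.8 FPKM in the combined group, 116 with OTA, 71.8 with CW14 and 80.8 in controls. The summed level of those 11 was 66.9 to 97.1 FPKM in the combined group, 111 to 139 with OTA, 74.3 to 93.1 with CW14 and 84.7 to 103 in controls.

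Levels differed widely among the repair genes. FPKM are scaled to length, which allows a rough comparison between genes. Shared loci and near-identical copies, named below, can still alter single levels. Averaged over the 12 libraries, 7 genes were at or above 20 FPKM, 8 between 10 and 20, 23 between 1 and 10, and 4 below 1. The median of the 42 means was 7.11 FPKM, against 10.5 for all genes tested. APEX1, the endonuclease that cuts at lost bases, was the highest at 143 FPKM, followed by the Ku subunits XRCC6 at 93.6 and XRCC5 at 45.7. DDB1, CHEK1, DDB2 and MSH6 followed, with means of 29.6, 28.3, 24.8 and 22.4. The lowest was ATR, at 0.610 FPKM, below FANCM at 0.825, ERCC4 at 0.941 and ERCC2 at 0.948. These 4 were too low to test. None of the 42 genes was listed at 0 in any library. The deposited loci of FANCA, FANCD2, FANCI, DDB1, ERCC1, ERCC2, ERCC5, ERCC6, MUTYH, MSH6, PMS1 and CHEK1 overlap those of neighbouring genes. Fragments could therefore be divided between them.

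**Figure D1:**
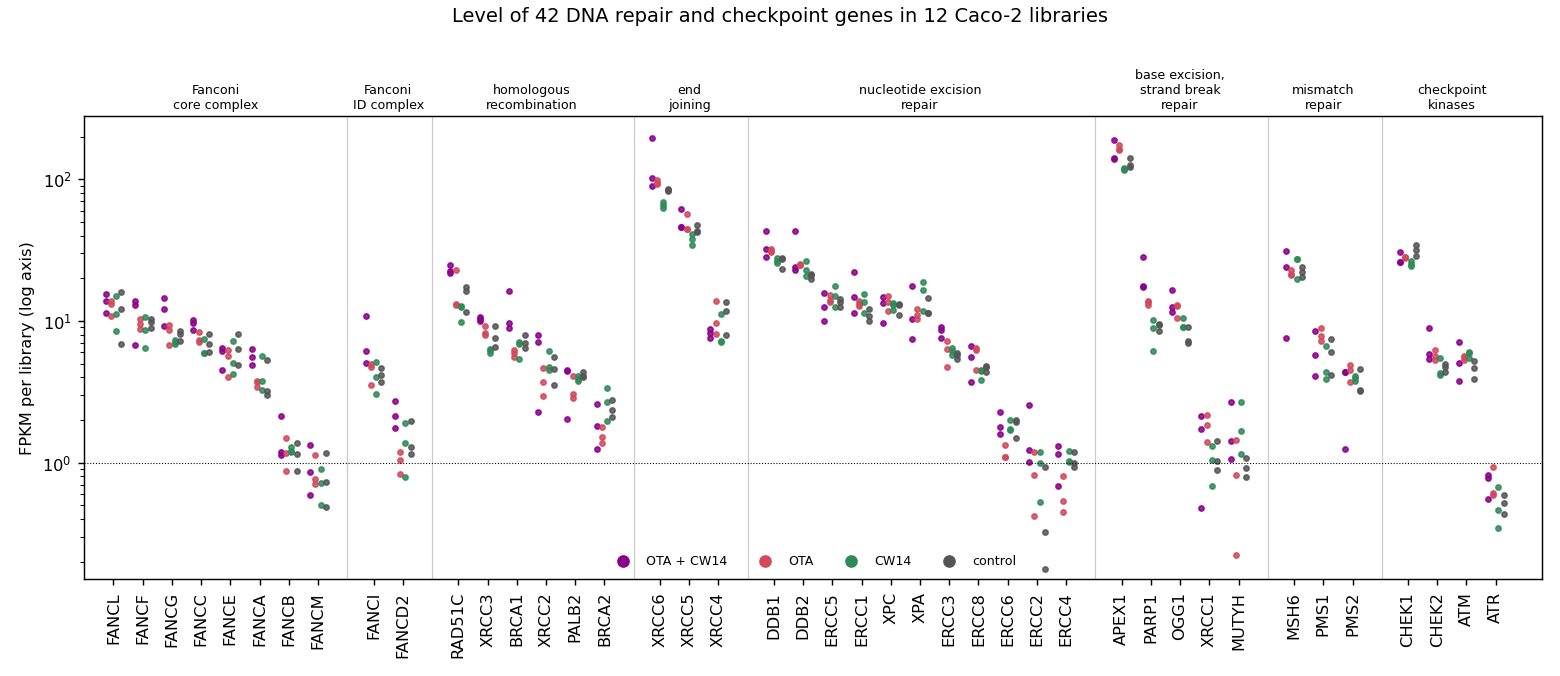
Each point is 1 library, with FPKM on a log axis and genes grouped by pathway, highest first. Colours stand for the 4 groups, with the combined group drawn leftmost and the controls rightmost, and the dotted line marks 1 FPKM. The 4 genes with a mean under 1 FPKM are ATR, FANCM, ERCC4 and ERCC2, and single combined libraries stand away from the rest in XRCC6, BRCA1, PMS2 and MSH6.

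Of the 38 repair genes tested, 11 were called in at least 1 comparison of 2 groups with all 12 libraries, and each of these calls was upward. The share of all genes called in at least 1 comparison was not counted. A single comparison, the combined group against CW14, called 32.3% of all genes. In bulk RNA, fewer cells of a kind and less RNA per cell cannot be told apart. OTA alone raised 1 of the 38 genes tested, OGG1, and lowered 0, where 17.7% of all genes were called at an adjusted p under 0.05 (4.82% higher and 12.9% lower). The combined group had 5 higher and 0 lower than control, a share of 13.2%, where 28.8% of all genes were called, 12.0% higher and 16.8% lower. Against CW14 alone the combined group had 9 higher and 0 lower, or 23.7%, where 32.3% of all genes were called, 14.8% higher and 17.5% lower. Against OTA alone 1 gene was higher, BRCA1, where 16.0% of all genes were called, 7.79% higher and 8.22% lower. CW14 alone changed none of the 38 by limma, where 0.364% of all genes were called, and 1 (CHEK1) had an unadjusted p under 0.05. Among the 4 groups together, 8 of 38 differed (21.1%), where 37.5% of all genes did. Without combined replicate 3, the calls were 3 higher in OTA against control, 2 higher in the combined group against OTA, 4 higher against control, and 10 higher and 1 lower (XPA) against CW14. In that fit 33.8%, 21.2%, 32.7% and 33.7% of all genes were called, in the same order.

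Counted in either direction, the shares for repair genes lay below those of all genes in each of these comparisons. In the combined group against control this order turned with quantile normalization (31.6% of repair genes, 30.8% of all genes) and with upper-quartile scaling (36.8% and 30.5%). Counted upward only, they were 13.2% beside 12.0% in the combined group against control and 23.7% beside 14.8% against CW14. They were lower than those of all genes in OTA against control (2.63% beside 4.82%) and in the combined group against OTA (2.63% beside 7.79%). In CW14 against control they were 0% beside 0.217%. With combined replicate 3 left out, 4 of 38 repair genes (10.5%) were higher in the combined group than in controls, beside 1768 of 12928 genes. The upward share of repair genes was then the lower one. Against CW14, 10 of 38 were higher in that fit, beside 1940 of 12928 genes. Because these comparisons share their control, OTA or CW14 libraries, they are not independent of each other. The median log2 difference of the 38 genes was 0.09 in OTA against control, beside 0.03 for all genes tested. It was 0.23 in the combined group against control, beside 0.02 for all genes, and 0.15 in the combined group against OTA, beside 0.03. Without combined replicate 3 these last 2 medians were 0.22 and 0.10. In OTA against control the groups did not overlap in 13 of the 38, with 9 higher and 4 lower, where 50.0% of all genes did not overlap (24.4% higher and 25.7% lower). In the combined group against control they did not overlap in 13, all higher, where 41.9% of all genes did not overlap (19.1% higher and 22.8% lower). Against CW14 there were 12, all higher, where 41.8% did not overlap (19.9% higher and 21.9% lower). Against OTA there were 9, all higher, where 34.4% did not overlap (17.8% higher and 16.6% lower). In CW14 against control there were 2 higher and 5 lower, where 20.5% did not overlap (9.66% higher and 10.9% lower). The counts of groups that did not overlap were not repeated without combined replicate 3.

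**Figure D2:**
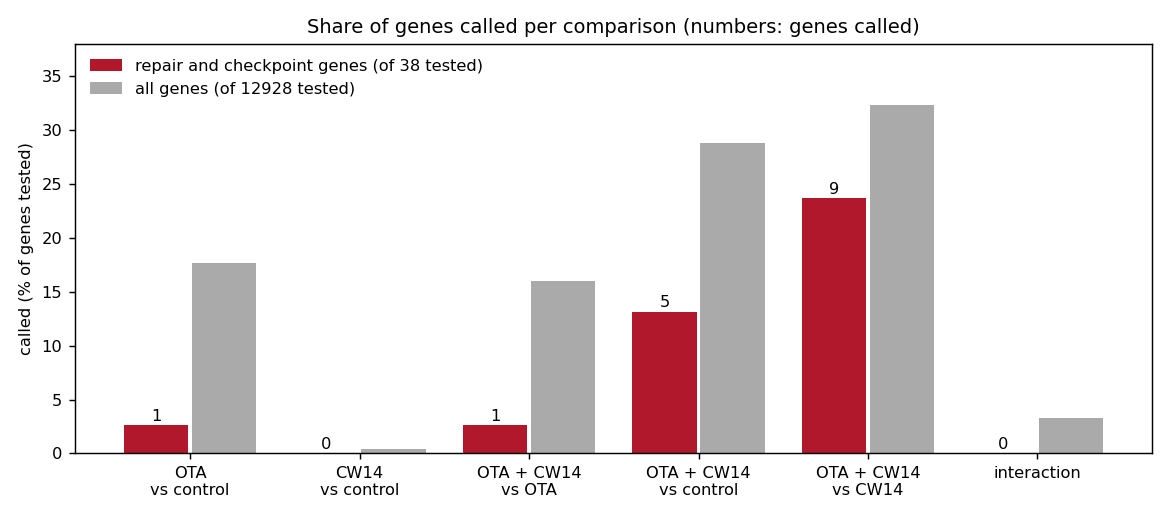
Bars give the share of genes called (limma adjusted p under 0.05) in each comparison, for the 38 repair genes and for all 12928 genes tested. The numbers over the red bars are the repair genes called, 9 at most, and the red bar is the lower one in each comparison.

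**Figure D3:**
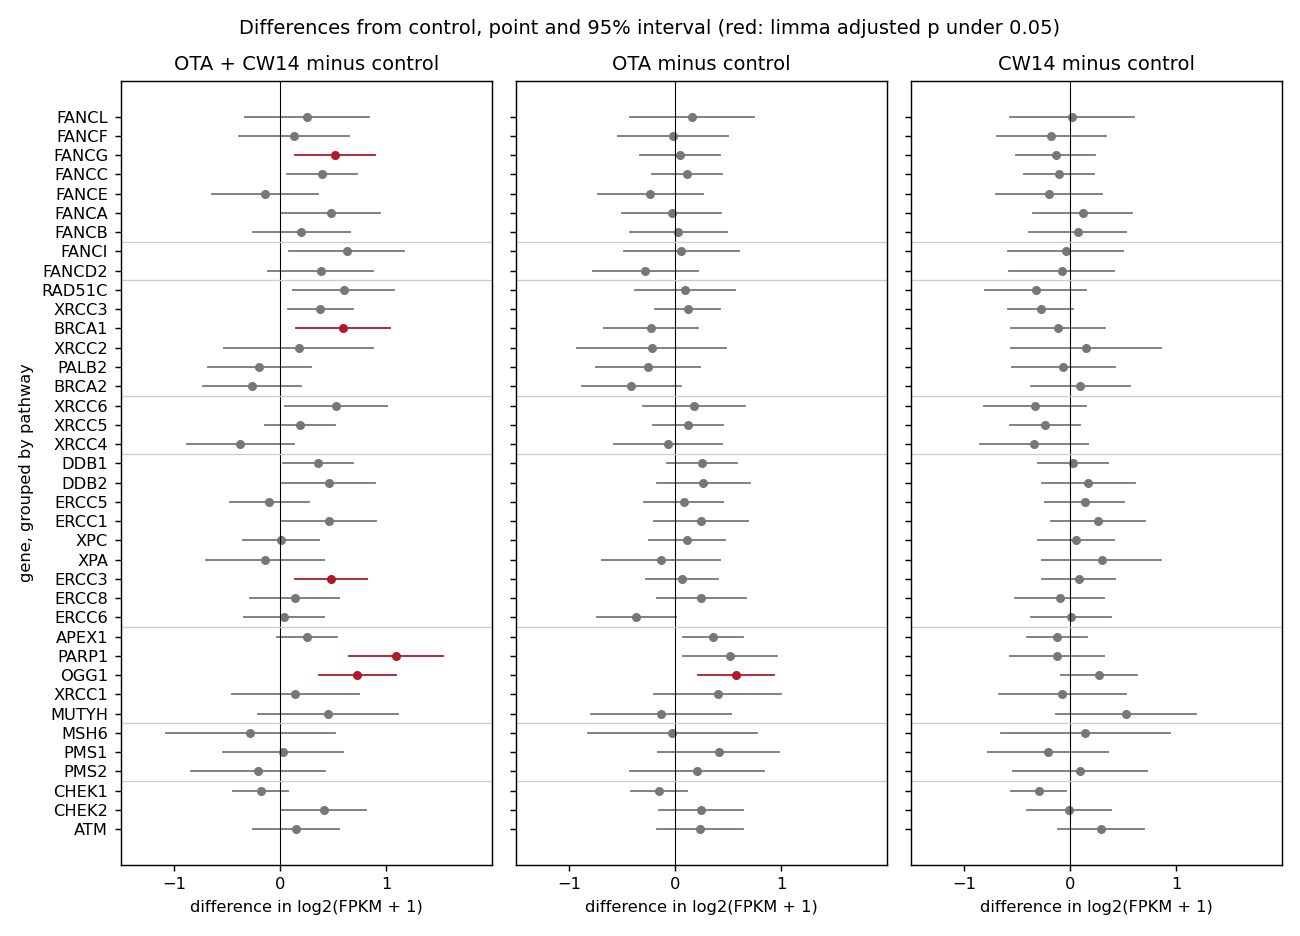
Points are differences from control in log2(FPKM + 1) for the 38 genes tested, with 95% intervals, in the combined, OTA and CW14 groups. Red marks an adjusted p under 0.05, which 5 genes reached in the combined group, 1 with OTA and 0 with CW14.

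Of the 5 base excision and strand break repair genes, 3 differed among the 4 groups, where 37.5% of all genes did. OGG1, the glycosylase that removes oxidised guanine (deposited hg19 locus chromosome 3, 9791626 to 9811668), was the repair gene called with OTA alone. PARP1, the enzyme that senses broken strands and builds poly(ADP-ribose), had the largest rise of all 38 genes in the combined group against control. APEX1 was higher in the combined group than with CW14.

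OGG1 had 16.6, 12.7 and 11.6 FPKM in the combined group, 12.8, 10.4 and 13.0 with OTA, 9.04, 10.5 and 9.14 with CW14 and 9.09, 6.97 and 7.28 in controls. Both groups with toxin lay above all 3 controls, and the CW14 libraries overlapped the controls and the OTA libraries. OGG1 rose 1.55-fold with OTA by the ratio of mean FPKM (log2 difference 0.58, SE 0.16, limma adjusted p = 0.0311) and 1.75-fold in the combined group (log2 difference 0.73, SE 0.16, limma adjusted p = 0.007). The combined and OTA libraries overlapped, and their difference was 0.15 (95% interval -0.20 to 0.51). The OTA call was lost without control replicate 2 or 3 or without OTA replicate 1 or 3 (adjusted p up to 0.119), and the combined call only with the fit limited to the compared groups (0.0578). Its deposited locus is shared with CAMK1, which had 0.188, 1.38 and 0.652 FPKM with OTA and 0.151, 0.669 and 0.664 in controls.

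PARP1 (hg19 chromosome 1, 226548390 to 226595801) had 17.4, 17.6 and 28.5 FPKM in the combined group, 13.0, 13.8 and 13.6 with OTA, 8.88, 6.18 and 10.1 with CW14 and 9.52, 9.35 and 8.48 in controls. All 3 combined libraries lay above the OTA libraries, which in turn lay above the CW14 and control libraries. Against control it rose 2.32-fold in the combined group (log2 difference 1.10, SE 0.20, limma adjusted p = 0.0023), with a log2 difference of 0.87 without combined replicate 3 (adjusted p = 0.00235). Against CW14 the log2 difference was 1.23 (limma adjusted p = 0.0011), and 1.00 without that library. Both calls passed in every alternative run. OTA alone gave 0.52 (SE 0.20, limma adjusted p = 0.105), which did not pass here, although without combined replicate 3 in the shared fit it did (adjusted p = 0.0189).

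APEX1 had 139, 142 and 189 FPKM in the combined group, 161, 175 and 163 with OTA, 117, 121 and 119 with CW14 and 140.5, 126 and 123 in controls. The OTA libraries lay above all controls, with a log2 difference of 0.35 (limma adjusted p = 0.0833). Without combined replicate 3 that difference passed (adjusted p = 0.0037). The call against CW14 (0.38, adjusted p = 0.0412) was lost in 13 of 23 alternatives. XRCC1, the scaffold that gathers strand break enzymes, averaged 1.44 ± 0.858 FPKM in the combined group, 1.80 ± 0.386 with OTA, 1.02 ± 0.316 with CW14 and 1.12 ± 0.276 in controls. MUTYH, which removes adenine paired with oxidised guanine, had 1.41, 1.07 and 2.69 FPKM in the combined group, 0.819, 1.44 and 0.224 with OTA, 1.16, 1.68 and 2.69 with CW14 and 1.07, 0.796 and 0.918 in controls. Neither was called in any comparison.

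**Figure D4:**
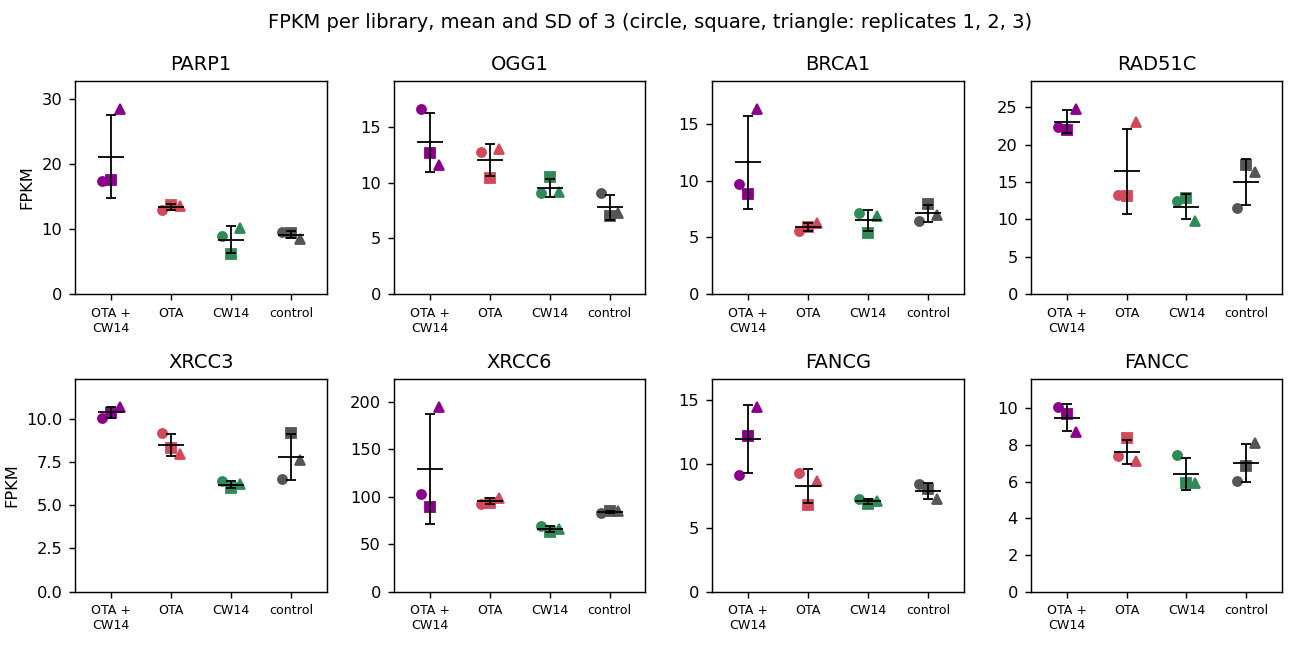
FPKM of 8 repair genes in each library, with the mean and SD of 3 libraries per group. PARP1 and OGG1 libraries with toxin lie above the controls, and in BRCA1 and XRCC6 the combined mean is carried up by replicate 3 (triangle).

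The 150 bases before the RefSeq start of PARP1, OGG1 and XRCC3 are shown because PARP1 and XRCC3 kept their calls under every alternative run, among the 4 groups and for the combined group against CW14, and OGG1 was the gene called with OTA alone. Each has 1 listed start. Of the 42 genes, 40 matched the promoter table, FANCI and XRCC5 being the others. The sequences come from the RefSeq table for GRCh38.p14, a different build from the hg19 loci, and are reference sequence, not read from these cells. The PARP1 window is chr1:226408094-226408243, minus strand, that of OGG1 chr3:9749802-9749951, plus strand, and that of XRCC3 chr14:103715452-103715601, minus strand. Capitals mark the GC box GGGCGG (or CCGCCC) and the CCAAT box (or ATTGG on the other strand), the motifs found in these windows.
PARP1: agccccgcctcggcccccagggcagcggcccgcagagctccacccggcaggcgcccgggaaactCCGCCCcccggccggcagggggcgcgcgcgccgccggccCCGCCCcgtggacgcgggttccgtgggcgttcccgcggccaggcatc
OGG1: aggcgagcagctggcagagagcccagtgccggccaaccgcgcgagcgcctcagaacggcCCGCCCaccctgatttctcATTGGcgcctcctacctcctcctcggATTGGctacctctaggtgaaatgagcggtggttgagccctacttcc
XRCC3: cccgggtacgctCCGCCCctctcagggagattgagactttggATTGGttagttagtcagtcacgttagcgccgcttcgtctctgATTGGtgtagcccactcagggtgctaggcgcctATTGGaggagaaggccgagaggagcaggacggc
PARP1 held 2 GC boxes and 0 CCAAT boxes in this window. OGG1 held 1 GC box and 2 CCAAT boxes, and XRCC3 held 1 GC box and 3 CCAAT boxes. Over the 250 bases before the start, on both strands, a GC box stood in 72.0% of the 25 tested repair genes with a single listed start and in 69.6% of the 6773 tested genes of that kind. A CCAAT box stood in 44.0% of the repair genes and 36.0% of all. The ETS motif CCGGAAG stood in 20.0% and 17.8%, and an E2F motif (TTTCCCGC, TTTGGCGC, TTTCGCGC or TTTGCCGC) in 8.00% and 4.47%. These shares describe letters in a window and say nothing of binding.

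In homologous recombination, 3 of 6 genes were called in the combined group against CW14, where 32.3% of all genes were. BRCA1, which steers broken ends towards recombination, rose in the combined group, and RAD51C and XRCC3, which bind each other and act in recombination, were higher in the combined group than with CW14. BRCA2, its partner PALB2 and XRCC2 were called in no comparison.

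BRCA1 (hg19 chromosome 17, 41196310 to 41277500) had 9.66, 8.85 and 16.3 FPKM in the combined group, 5.59, 5.94 and 6.25 with OTA, 7.17, 5.42 and 6.92 with CW14 and 6.42, 7.92 and 6.97 in controls. Replicate 3 was far above the other combined libraries, yet all 3 combined values exceeded all 9 others. The rise over OTA was 1.96-fold (log2 difference 0.82, SE 0.20, limma adjusted p = 0.0214) and stayed called without combined replicate 3 (0.57, adjusted p = 0.0197). It was lost when any OTA replicate was left out or only the compared groups were fitted (adjusted p up to 0.122). Against control the log2 difference of 0.60 (limma adjusted p = 0.0455) became 0.34 without combined replicate 3 and was no longer called (adjusted p = 0.0903). That call was lost in 12 of 23 alternatives. OTA alone gave -0.22 (95% interval -0.67 to 0.22), and CW14 alone -0.11 (95% interval -0.56 to 0.33).

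RAD51C had 22.4, 22.0 and 24.8 FPKM in the combined group, 13.2, 13.1 and 23.0 with OTA, 12.5, 12.8 and 9.79 with CW14 and 11.5, 17.2 and 16.3 in controls. The combined libraries lay close together, while 1 OTA library lay within their range. XRCC3 had 10.1, 10.3 and 10.7 FPKM in the combined group, 9.19, 8.29 and 7.93 with OTA, 6.38, 5.98 and 6.20 with CW14 and 6.54, 9.20 and 7.63 in controls. Against CW14, RAD51C rose by a log2 difference of 0.93 (SE 0.22, limma adjusted p = 0.00784) and XRCC3 by 0.66 (SE 0.14, limma adjusted p = 0.00465). Both calls passed in all 23 alternatives, and without combined replicate 3 the differences were 0.88 and 0.64. Against control the adjusted p of RAD51C was 0.0564 and that of XRCC3 0.0599. XRCC3 shares its deposited locus with KLC1, which was called in no comparison and had 9.13, 6.41 and 9.64 FPKM in the combined group and 8.97, 10.7 and 8.53 with CW14.

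BRCA2, which acts in recombination at resected ends, had 1.82, 2.58 and 1.24 FPKM in the combined group, 1.51, 1.77 and 1.38 with OTA, 2.69, 1.98 and 3.34 with CW14 and 2.78, 2.35 and 2.09 in controls. All OTA libraries lay below all CW14 and control libraries, with a log2 difference of -0.41 from control that did not pass (limma adjusted p = 0.214). PALB2, which joins BRCA1 to BRCA2, averaged 3.67 ± 1.43 in the combined group, 3.35 ± 0.661 with OTA, 3.92 ± 0.179 with CW14 and 4.16 ± 0.179 in controls. XRCC2, which also acts in recombination, had 7.17, 7.95 and 2.30 FPKM in the combined group and 2.96, 4.62 and 3.74 with OTA. Its replicate 3 was the lowest of all 12 libraries, and without it XRCC2 was called higher than OTA (0.86, adjusted p = 0.0139) and higher than control (0.63, adjusted p = 0.0329).

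In the Fanconi pathway 7 of 8 core genes and both genes of the FANCD2 and FANCI pair were tested, and none was called with OTA alone or with CW14 alone. FANCG, a core subunit, was higher in the combined group than in controls, and FANCG and FANCC were higher than with CW14. FANCG had 9.18, 12.2 and 14.5 FPKM in the combined group, 9.34, 6.77 and 8.66 with OTA, 7.30, 6.89 and 7.09 with CW14 and 8.44, 8.05 and 7.25 in controls. It rose 1.51-fold over control (log2 difference 0.52, SE 0.17, limma adjusted p = 0.0397), a call that was lost in 14 of 23 alternatives, among them leaving out combined replicate 3 (adjusted p = 0.0851) or replicate 2. FANCC had 10.1, 9.69 and 8.68 FPKM in the combined group, 7.38, 8.38 and 7.10 with OTA, 7.45, 5.95 and 5.91 with CW14 and 6.04, 6.86 and 8.10 in controls. Every combined FANCC value was above all 9 others, and the difference from CW14 was 0.50 (limma adjusted p = 0.0246), or 0.56 without combined replicate 3 (adjusted p = 0.0153). The call was lost in 5 of 23 alternatives, among them leaving out CW14 replicate 2 or 3 or combined replicate 1 (adjusted p up to 0.116).

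FANCL, the ubiquitin ligase of the core complex, had the highest mean of the core genes, 12.4 FPKM. It had 11.4, 15.4 and 13.9 FPKM in the combined group, 10.8, 13.8 and 13.2 with OTA, 15.0, 11.1 and 8.51 with CW14 and 16.1, 6.87 and 12.2 in controls, and the 4 groups overlapped. Its deposited locus is shared with VRK2. FANCM, the DNA translocase, was the lowest, with 0.866, 1.32 and 0.591 FPKM in the combined group, 0.711, 1.14 and 0.767 with OTA, 0.901, 0.502 and 0.716 with CW14 and 1.17, 0.736 and 0.487 in controls. The core subunits FANCA, FANCB, FANCE and FANCF had group means between 1.13 and 11.2 FPKM and log2 differences of -0.03, 0.03, -0.23 and -0.02 in OTA against control. FANCD2 had 1.77, 2.15 and 2.74 FPKM in the combined group, 1.19, 0.831 and 1.04 with OTA, 0.786, 1.92 and 1.37 with CW14 and 1.29, 1.97 and 1.16 in controls. FANCI had 5.02, 6.09 and 10.9 FPKM in the combined group, 4.96, 3.54 and 4.73 with OTA, 3.04, 5.15 and 4.06 with CW14 and 4.13, 3.70 and 4.69 in controls. In both genes the combined libraries lay above all OTA libraries, with log2 differences of 0.66 and 0.57 that did not pass (limma adjusted p = 0.0653 and 0.131).

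End joining rests on the Ku heterodimer of XRCC6 and XRCC5, which caps broken ends, and on XRCC4, the partner of the ligase. XRCC6 had 103, 89.3 and 195 FPKM in the combined group, 92.6, 93.8 and 98.6 with OTA, 69.5, 63.2 and 66.4 with CW14 and 82.4, 84.5 and 84.8 in controls. The CW14 libraries lay below all 9 others. The rise over CW14 was 0.86 (SE 0.22, limma adjusted p = 0.012) and 0.53 without combined replicate 3, whose value was the highest of the 12 (adjusted p = 0.000972). XRCC5 had 46.4, 45.8 and 62.1 FPKM in the combined group, 44.8, 44.7 and 57.4 with OTA, 41.0, 34.4 and 37.8 with CW14 and 47.4, 43.6 and 42.7 in controls. It rose over CW14 (0.43, limma adjusted p = 0.0487), a call lost in 15 of 23 alternatives. XRCC4 had 7.54, 8.20 and 8.82 FPKM in the combined group, 8.14, 13.9 and 9.65 with OTA, 11.1, 7.12 and 7.25 with CW14 and 13.6, 11.7 and 7.98 in controls, and was not called.

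Nucleotide excision repair was the largest pathway, with 9 of 11 genes tested, and ERCC3 was its only gene called in any comparison of 2 groups. ERCC3, a helicase of TFIIH that opens DNA at the lesion, had 7.56, 8.69 and 9.01 FPKM in the combined group, 6.34, 7.26 and 4.72 with OTA, 6.10, 5.78 and 6.40 with CW14 and 5.76, 5.99 and 5.41 in controls. It rose 1.47-fold over control (log2 difference 0.48, SE 0.16, limma adjusted p = 0.0364), and the call was lost in 11 of 23 alternatives, among them leaving out combined replicate 2 or 3. Without replicate 3 the difference was 0.44 (adjusted p = 0.0558). The damage sensors DDB1 and DDB2 were not called. DDB2 had 22.9, 24.0 and 42.9 FPKM in the combined group, 24.9, 24.8 and 25.3 with OTA, 21.0, 26.5 and 23.0 with CW14 and 19.6, 21.3 and 21.0 in controls. The OTA libraries lay together above all controls, at a log2 difference of 0.27 (95% interval -0.17 to 0.70, limma adjusted p = 0.405). DDB1, the highest of the pathway, had 32.0, 28.1 and 42.9 FPKM in the combined group, 30.7, 32.1 and 31.0 with OTA, 26.5, 27.7 and 25.7 with CW14 and 23.2, 27.9 and 27.5 in controls.

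XPC, which recognises distorted helices, averaged 12.6 ± 2.66 FPKM in the combined group, 13.5 ± 1.65 with OTA, 12.8 ± 0.745 with CW14 and 12.4 ± 1.20 in controls. Its log2 difference with OTA was 0.11 (95% interval -0.25 to 0.47). DDB2 and XPC are known p53 targets in human cells, so other targets are set beside them, from a list chosen with earlier results of these data known. Of 19 such targets tested, 0 rose and 14 fell with OTA, with a median log2 difference of -1.43. Among all genes 4.82% rose and 12.9% fell. Without combined replicate 3 in the shared fit, 1 target rose and 15 fell, where 33.8% of all genes were called. CDKN1A, the p21 cell cycle inhibitor, had 51.9, 61.0 and 53.1 FPKM with OTA and 145, 123 and 118 in controls. MDM2, the ligase that degrades p53, had 22.9, 24.4 and 21.0 with OTA and 75.7, 54.9 and 59.5 in controls. In both the OTA libraries lay below all controls.

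The other excision genes varied without a call. XPA, which checks the lesion, had 7.45, 10.3 and 17.6 FPKM in the combined group and 12.2, 10.3 and 11.1 with OTA. It had 16.6, 18.7 and 11.8 with CW14 and 11.4, 11.3 and 14.6 in controls. Without combined replicate 3 it was lower than with CW14 (-0.75, limma adjusted p = 0.0143). In that fit it was not called against OTA or control (limma adjusted p = 0.277 and 0.103). ERCC1, part of the nuclease that cuts on the 5′ side, averaged 16.1 ± 5.52 in the combined group, 13.3 ± 0.564 with OTA, 13.5 ± 2.07 with CW14 and 11.0 ± 1.09 in controls. ERCC5, the nuclease of the 3′ side, had group means between 12.8 and 15.1 FPKM. The transcription-coupled repair genes went different ways in OTA against control, ERCC6 by -0.36 and ERCC8 by 0.25, and neither passed (limma adjusted p = 0.177 and 0.423). ERCC6 had 1.10, 1.09 and 1.33 FPKM with OTA and 1.49, 1.99 and 1.93 in controls, groups that did not overlap. ERCC4, the partner of ERCC1, and ERCC2, the other TFIIH helicase, were not tested. ERCC4 had 1.14, 1.31 and 0.688 FPKM in the combined group, 0.807, 0.446 and 0.533 with OTA, 1.02, 1.02 and 1.21 with CW14 and 0.999, 0.927 and 1.19 in controls. ERCC2 had 1.01, 1.22 and 2.55 in the combined group and 0.326, 0.937 and 0.179 in controls. Its values of 1.19, 0.813 and 0.422 with OTA and 1.00, 0.526 and 1.19 with CW14 overlapped both.

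None of the 3 mismatch repair genes was called in any comparison. MSH6, a subunit of the mismatch sensor, had 24.1, 31.2 and 7.58 FPKM in the combined group, 21.5, 22.8 and 21.0 with OTA, 27.4, 19.8 and 27.2 with CW14 and 23.9, 22.3 and 20.4 in controls. Combined replicate 2 held the highest of the 12 values and replicate 3 the lowest. PMS1 averaged 6.12 ± 2.26 in the combined group, 7.99 ± 0.903 with OTA, 4.94 ± 1.48 with CW14 and 5.89 ± 1.69 in controls. PMS2, the endonuclease subunit, had 4.35, 4.37 and 1.25 FPKM in the combined group, 4.54, 3.68 and 4.89 with OTA, 3.95, 4.08 and 3.79 with CW14 and 3.23, 3.20 and 4.59 in controls. PMS2 and CHEK2 have near-identical pseudogene copies, so their fragments may be shared with those copies and their levels are uncertain.

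The checkpoint kinases were not called either. CHEK1, the kinase downstream of ATR, had 26.2, 26.3 and 30.9 FPKM in the combined group, 27.8, 28.5 and 28.5 with OTA, 24.4, 25.3 and 26.6 with CW14 and 34.5, 28.7 and 31.6 in controls. All libraries with OTA or CW14 alone lay below the 3 controls, and the log2 difference was -0.15 with OTA (95% interval -0.41 to 0.11) and -0.30 with CW14 (limma adjusted p = 0.677). CHEK2, the kinase downstream of ATM, averaged 6.72 ± 1.90 in the combined group, 5.75 ± 0.429 with OTA, 4.66 ± 0.742 with CW14 and 4.69 ± 0.308 in controls. ATM averaged 5.31 ± 1.66 in the combined group, 5.52 ± 0.185 with OTA, 5.81 ± 0.261 with CW14 and 4.58 ± 0.683 in controls, with a log2 difference of 0.23 in OTA against control (95% interval -0.18 to 0.64). ATR, the lowest of all 42, had 0.817, 0.780 and 0.558 FPKM in the combined group, 0.595, 0.615 and 0.926 with OTA, 0.346, 0.462 and 0.670 with CW14 and 0.596, 0.436 and 0.522 in controls.

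Genes of the same pathways outside the 42 were counted over 7 lists, which held 82 tested genes, of which 3 rose and 11 fell with OTA, or 17.1%, close to the 17.7% of all genes. Without combined replicate 3 in the shared fit, 12 rose and 12 fell, where 33.8% of all genes were called. In the combined group against control 8 rose and 7 fell, or 18.3%, where 28.8% of all genes were called. Of 17 other damage signalling genes, 6 fell and 0 rose with OTA, where 12.9% of all genes fell and 4.82% rose. With combined replicate 3 left out of the shared fit, 7 fell and 0 rose. WEE1, the kinase that holds cells before mitosis, fell to 15.3, 18.4 and 15.2 FPKM with OTA, against 78.5, 72.7 and 69.5 in controls (log2 difference -2.11, SE 0.22, limma adjusted p = 3.97e-05). PPM1D, a phosphatase that ends the damage signal, fell to 3.80, 2.18 and 1.75 with OTA, against 9.92, 8.71 and 11.1 in controls (log2 difference -1.65, SE 0.21, limma adjusted p = 0.000254). The list had 5 lower and 0 higher in the combined group against control, and 5 lower and 2 higher without combined replicate 3. Among 15 other base excision genes, 0 rose and 2 fell with OTA (1 and 2 without combined replicate 3). In the combined group against OTA 3 rose and 0 fell (1 and 0 without that library), where 16.0% of all genes were called. FEN1, the flap endonuclease, had 70.1, 70.6 and 62.3 FPKM in the combined group, 28.5, 31.5 and 31.2 with OTA and 38.2, 48.7 and 50.5 in controls (log2 difference 1.13, SE 0.13, limma adjusted p = 0.00194, combined against OTA). TDG, a thymine glycosylase, fell with OTA by 0.56 on the log2 scale.

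Among 17 other recombination and crosslink genes, 1 rose and 1 fell with OTA (5 and 1 without combined replicate 3). RAD52 rose (0.56, limma adjusted p = 0.0492) and BARD1, the partner of BRCA1, fell to 5.96, 7.64 and 5.41 FPKM with OTA, against 11.2, 12.9 and 10.1 in controls (limma adjusted p = 0.0124). In the combined group BARD1 had 4.08, 6.57 and 4.26 FPKM, a log2 difference of -1.07 from control (limma adjusted p = 0.00126), and it was also called without combined replicate 3 (adjusted p = 0.00232). Of 9 other end joining genes 1 rose (TDP2, 0.47) and 1 fell (DCLRE1C, the Artemis nuclease, -1.19) with OTA. Without combined replicate 3, 4 of the 9 rose and 1 fell. Of 11 other nucleotide excision genes 1 rose (GTF2H2, 0.75) and 0 fell. Of 7 translesion genes 0 rose and 1 fell (REV1, -0.63), and of 6 other mismatch and direct repair genes 0 were called by limma, with 0 at an unadjusted p under 0.05. Without combined replicate 3, 1 of these 6 rose. Among all genes 4.82% rose and 12.9% fell with OTA, and 33.8% were called in either direction without that library.

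Genes of S, G2 and M phase differed between the same groups. Of 25 such genes, 9 were higher and 3 lower in the combined group than with OTA, and 5 were higher and 4 lower than in controls. Against CW14, 10 were higher and 2 lower. These are 48.0%, 36.0% and 48.0% of the list, where 16.0%, 28.8% and 32.3% of all genes were called. Without combined replicate 3 they were 9 and 3, 4 and 5, and 10 and 2, where 21.2%, 32.7% and 33.7% of all genes were called. MCM3, a subunit of the replicative helicase, had 33.7, 34.4 and 55.7 FPKM in the combined group, 18.9, 19.9 and 18.7 with OTA and 15.7, 20.3 and 23.1 in controls. PCNA, the sliding clamp, had 67.7, 66.2 and 103 in the combined group, 44.6, 42.8 and 52.3 with OTA and 53.9, 71.1 and 53.1 in controls. MKI67, a marker of cycling cells, averaged 42.3 ± 10.1 in the combined group, 33.5 ± 1.42 with OTA and 39.1 ± 1.29 in controls. These 3 were chosen as examples after their values were seen. The summed level of the 25 was 940.0 to 1144 FPKM in the combined group, 901 to 964 with OTA, 882 to 900.0 with CW14 and 973 to 1061 in controls. Its part in the rises of BRCA1, FANCG or PARP1 was not tested.

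The test of whether OTA and CW14 add on the log2 scale called none of the 38 genes by limma, where 3.33% of all genes were called (1.85% higher and 1.49% lower), and 7 of the 38 had an unadjusted p under 0.05. The largest interaction was that of BRCA1, 0.93 (95% interval 0.31 to 1.56, limma adjusted p = 0.0836). It was 0.68 without combined replicate 3 and then called (adjusted p = 0.0436). RAD51C and FANCD2 followed, with 0.84 and 0.75, and PARP1 had 0.71 (limma adjusted p = 0.128, 0.177 and 0.156). A combined effect different from the sum of both was thus not detectable by this test in the 38 genes with all 12 libraries.

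The spread among replicates of the combined group was larger than in the other groups. The median coefficient of variation of the 38 genes was 28.1% in the combined group, 11.6% with OTA, 14.4% with CW14 and 13.2% in controls, close to the 28.6%, 11.7%, 14.5% and 11.8% of all genes tested. Replicate 3 lay above the mean of replicates 1 and 2 in 25 of the 38 genes and below it in 13. The deviation exceeded 0.5 on the log2 scale in 11 upward and 10 downward. XRCC6, XPA, FANCI and DDB2 were furthest up (1.01, 0.93, 0.87 and 0.84), and MSH6, XRCC2 and PMS2 furthest down (-1.73, -1.37 and -1.25). Across the 38 genes the deviation and the GC content of the longest coding transcript had a Spearman rho of 0.31, beside 0.48 across 11429 tested genes. These are correlations across genes of 1 library, and genes are not independent replicates. The median GC content was 49.6% in the 11 genes furthest up and 41.7% in the 10 furthest down.

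**Figure D5:**
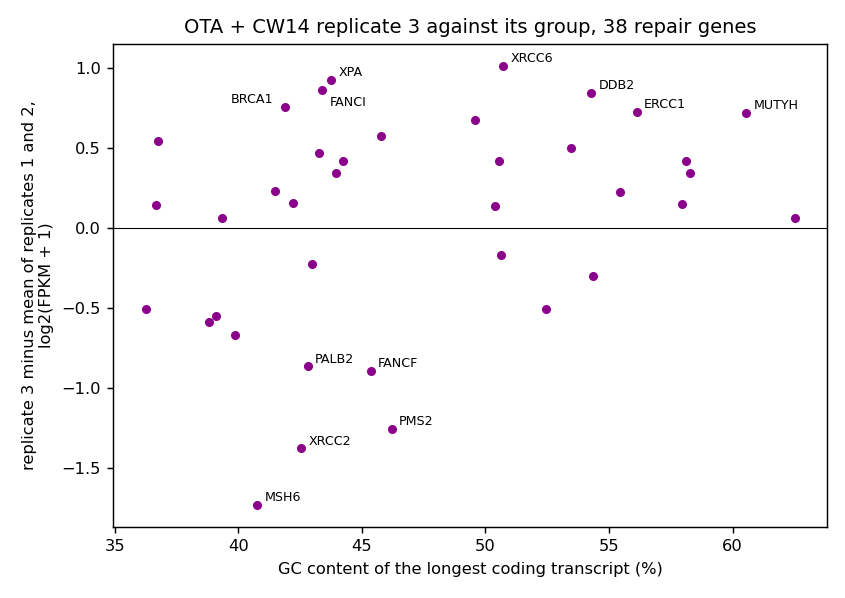
Each point is 1 of the 38 repair genes, with the GC content of its longest coding transcript on the x axis and the deviation of combined replicate 3 from the mean of replicates 1 and 2, in log2(FPKM + 1), on the y axis. Genes deviating by more than 0.7 are named, and the points scatter widely around a rho of 0.31.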

How the data were processed

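RNA of 12 Caco-2 libraries, 3 in each of 4 groups, was sequenced as 150-base pairs. Per the labels' protocols the library kit was NEBNext Ultra RNA. The submitters' processing notes name hg19 as build and list Cufflinks 2.2.1, Cuffdiff, Cuffnorm, TopHat2 2.0.13 and cutadapt 1.10, without roles. The deposited FPKM values were made by the authors; scaling between libraries, the annotation and the strand setting were not stated. Absolute depth is unknown. Relative depth was read from the most common ratio of FPKM values under 0.3 (tolerance 0.01, log2).

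Groups came from sample titles. log2(FPKM + 1) was fitted in limma 3.58.1 (R 4.3.3), with a mean per group, intensity trend and 8 residual degrees of freedom, for 12928 genes averaging 1 FPKM or more. Tests were two-sided, with Benjamini-Hochberg adjustment over all genes tested, and called at 0.05. The code was tested on simulated data. No 2 libraries were identical. The 42 members, the lists, the tests and the naming rule were chosen with earlier results of these data known. By that rule, values per library are given for members called in OTA against control, the combined group against OTA or CW14 against control and for the highest and lowest member of each pathway, and up to 2 called genes are named per other repair list. Other members given per library were chosen after their values were seen. Loci are printed as deposited, and shared loci or overlapping genes cannot be told apart without strand.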

Additional observations from a re-analysis of the deposited data

How the results depend on the processing

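Leaving out 1 library at a time moved the number of repair genes called to between 0 and 3 in OTA against control, 0 and 2 in the combined group against OTA, 2 and 6 in the combined group against control, 5 and 11 against CW14, 0 and 1 in the interaction, 4 and 10 in the test among the 4 groups, and 0 throughout in CW14 against control. In OTA against control the count of 1 became 2 with median-centred values, 3 with quantile normalization, 3 with upper-quartile scaling and 4 with only the compared groups. The shares of all genes called there were 19.3%, 18.8%, 18.4% and 35.7%, in the same order. Median-centring moved the median of all genes in that comparison by about 0.1, from 0.03 to 0.13. In the combined group against control the count of 5 became 2 without a filter, 8 with median-centring, 12 with quantile normalization, 14 with upper-quartile scaling and 1 with only the compared groups. The shares of all genes called were 16.8%, 29.5%, 30.8%, 30.5% and 12.3%, in the same order. Against CW14 the 9 became 3 with only the compared groups, where 11.8% of all genes were called. Against OTA the 1 became 0 with only the compared groups and 2 without the intensity trend, where 0.541% and 15.1% of all genes were called. Among the 4 groups the 8 became 4 without a filter. With the compared groups only and combined replicate 3 left out, a setting chosen after seeing the data, the counts were 4 in OTA against control, and 2, 3 and 4 for the combined group set against OTA, control and CW14. Of all genes, 35.7%, 16.7%, 27.7% and 21.2% were called in that setting. Array weights gave 8 in OTA against control, 1 in CW14 against control, 20, 25 and 20 for the combined group set against OTA, control and CW14, 11 in the interaction and 30 among the groups. With these weights 45.4%, 2.58%, 59.6%, 67.2% and 61.8% of all genes were called in the comparisons of 2 groups, in that order. The estimate of the weights did not converge. It gave combined replicate 1 a weight of 32.2 and replicate 3 one of 0.0421, against 0.587 to 2.61 in the other groups. Counts that involve the combined group, the interaction and the test among groups included, therefore rest for that group mainly on 1 library. OTA against control and CW14 against control share only the estimate of the spread with the combined group. With the replicate number as a block, the combined group against control gave 3 in place of 5 (27.3% of all genes), and no other count moved by over 1.5 times. No pairing by number was seen: same-numbered deviations correlated at -0.15 to 0.15, and 0 of 12 samples was closest to its own number. The deviations are taken from means of only 3 libraries, so this check cannot exclude a weak pairing. No called gene changed sign under the alternatives run. The depth behind each value is unknown, so no counting interval was given, and the cause of the other differences was not tested.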
